A study of Homo sapiens with 12 samples.

Results

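The genes described here are 38 targets of the transcription factor ATF4 or enzymes that charge transfer RNAs (tRNAs), set out by role: 7 in serine and one-carbon metabolism, 7 other amino acid enzymes, 4 amino acid transporters, 8 regulators and secreted proteins, and 12 aminoacyl-tRNA synthetases. They were taken by symbol from the array rows that carry a single gene symbol, and where a gene had several such rows, the brightest one by its average across the 12 arrays was used. Of the 38, 36 had a row, out of 18417 genes with one in the series, and *GPT2* and *CBS* were not analysed here. Calu-6, a human lung cancer cell line, received a pool of siRNAs against *LAPTM4B*, a lysosomal membrane protein (siLAPTM4B), or a scrambled siRNA (siControl), both from Dharmacon and delivered with Lipofectamine RNAiMAX. A day later the DMEM/F12 medium was switched to 0% FBS or held 10% FBS. After a further 48 h, which was 72 h from transfection, total RNA was isolated and read on Affymetrix Human Gene 1.0 ST arrays. The 4 groups were siLAPTM4B without serum, siControl without serum, siLAPTM4B with 10% FBS and siControl with 10% FBS, each with 3 replicates of this single line. How those replicates were separated is not given in the sources used here, so the p-values measure the spread between these samples. Every signal below is a log2 value after robust multi-array averaging (RMA), and every difference is a difference of such values.

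ATF4 is a basic leucine zipper factor of the integrated stress response. When kinases such as GCN2 or PERK phosphorylate the translation factor eIF2, bulk protein synthesis slows while the *ATF4* message, which carries upstream open reading frames, is translated more, and the protein then binds DNA with partners of the C/EBP family. Its targets supply a cell with amino acids: enzymes for serine, glycine, asparagine and proline, transporters, and the synthetases that join each amino acid to its tRNA. ATF4 protein itself is not measured by these arrays.

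The DNA element bound by ATF4 with a C/EBP partner has TGATGNAA as its core, and this core was searched on both strands of the promoter windows given by RefSeq (GRCh38.p14), which run from 250 bases before to 50 bases after a start. A window was at hand for 30 of the 38 listed genes, and *PSPH*, *SHMT2*, *ALDH1L2*, *PYCR1*, *GPT2*, *NUPR1*, *LARS1* and *YARS1* had none. The core stood in 13 of the 30 (43.3%), against 1217 of 27305 genes with a window (4.46%), or 3.62% of all windows. Among the synthetases 7 of 10 genes with a window held it, against 1 of 4 in serine and one-carbon metabolism, 2 of 5 of the other amino acid enzymes, 2 of 4 transporters and 1 of 7 regulators. Sites of 8 genes are shown, 4 that were called on serum withdrawal in at least 1 siRNA group (first) and 4 that were not, so that the core can be set beside the response. Each is read 5′ to 3′ on the strand where the core reads TGATGNAA, and capitals mark the core.
MTHFD1L: gccggctcTGATGCAAtcgcgccg
CHAC1: ggcaggagTGATGCAAcggcaggg
SLC1A4: gctggagaTGATGCAAacgggagc
IARS1: cacggaggTGATGCAAcgcgctga
ASNS: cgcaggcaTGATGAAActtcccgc
CEBPG: gcggcgtcTGATGCAAcctgccgg
AARS1: aacttggcTGATGCAActgcgaga
GARS1: tcggagcaTGATGAAAtcgccgcg
The *MTHFD1L* site lies at chr6:150866349-150866372 on the plus strand, within the windows of 3 annotated starts. The *CHAC1* site is at chr15:40953254-40953277, minus strand, and that of *SLC1A4* is at chr2:64989384-64989407, minus strand. For *IARS1* the site is at chr9:92293695-92293718, plus strand. *ASNS*, a gene of the minus strand, has its site at chr7:97872461-97872484 on that strand. The sites of *CEBPG* (chr19:33374063-33374086, plus strand), *AARS1* (chr16:70289678-70289701, plus strand) and *GARS1* (chr7:30594837-30594860, minus strand) complete the set. *ASNS* and *GARS1* have A at the free position of the core, while the other 6 have C. A match describes these letters only, and a window without one says nothing of whether the factor binds elsewhere.

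No array stood apart: the lowest correlation of an array with another of its group was 0.9976 to 0.9982. *LAPTM4B* checked the labels, with 10.45 to 10.54 in siLAPTM4B against 11.87 to 11.94 in siControl without serum, and 9.99 to 10.04 against 11.75 to 11.80 with 10% FBS. Of the markers of the line, *KRT8*, *KRT18* and *VIM* averaged 12.89, 12.23 and 13.23 over the 12 arrays, while *CDH1* stood at 6.21 and *CDH2* at 6.45, below the lower quartile of features (6.87). Of the markers of other cell types, *PTPRC*, *CD3E*, *PECAM1*, *KDR* and *DCN* were below it as well, at 5.25 to 6.74, and *CD14*, *LYZ*, *CDH5*, *COL1A1*, *COL1A2* and *PDGFRA* were above it, at 7.24 to 9.32. Of 4 leukocyte markers 1 was called higher (*LYZ*) and 1 lower (*CD14*) on serum withdrawal in both siRNA groups, and their mean ran from 7.15 to 7.21 without serum against 7.17 to 7.22 with 10% FBS in siLAPTM4B cells, and from 7.21 to 7.25 against 7.09 to 7.17 in siControl cells. *EPCAM* rose by 0.79 and 1.09 in siLAPTM4B and siControl cells, the one call among 5 epithelial markers, whose mean ran from 9.83 to 9.86 against 9.64 to 9.69 in siLAPTM4B cells and from 9.74 to 9.79 against 9.49 to 9.55 in siControl cells. *PDGFRA* rose by 0.47 and 0.40, the one call among 4 fibroblast markers, whose mean ran from 7.47 to 7.57 against 7.40 to 7.45 in siLAPTM4B cells and from 7.37 to 7.45 against 7.31 to 7.42 in siControl cells. The part of these markers in the results below was not tested.

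Most of the listed genes were bright. *SLC38A2*, *SHMT2*, *IARS1* and *GARS1* averaged 13.01, 12.52, 12.43 and 12.32 over the 12 arrays, each above 98% of all features, whereas *ALDH1L2*, at 6.15, was the one gene below the lower quartile. The median SD of a listed gene within a group was 0.04, and the highest was 0.24.

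Serum withdrawal moved a part of the listed genes, in both directions, and moved largely the same ones whether or not LAPTM4B was knocked down. The pseudokinase *TRIB3*, the mitochondrial folate enzyme *MTHFD2* and the transporters *SLC6A9*, *SLC1A4* and *SLC38A2* rose the most, and *CTH*, which makes cysteine, fell the most. The tests were fits in limma of the 6 arrays of a comparison, with Benjamini-Hochberg adjustment over all 19460 features with 1 symbol, and a gene was called at an adjusted p under 0.05. In siLAPTM4B cells 11 of 36 genes were called (30.6%), 9 higher and 2 lower, where 20.7% of all features were called. In siControl cells 13 of 36 were called (36.1%), 9 higher and 4 lower, where 26% of all features were called. Each share was above that of all features. The genes were chosen with earlier results of these data known, so no excess is concluded from it. Higher calls were 9 of 36 where 9.74% of features rose in siLAPTM4B cells, and 9 of 36 where 13.2% rose in siControl cells. Lower calls were 2 of 36 where 11% of features fell in siLAPTM4B cells, and 4 of 36 where 12.9% fell in siControl cells. The median difference over the 36 genes was 0.01 in siLAPTM4B cells and 0.03 in siControl cells, against -0.01 and -0.02 over all features. Each array read the RNA of a whole culture, so less RNA per cell and fewer cells with the message cannot be told apart.

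The 2 serum comparisons share no array. Their calls had 10 genes in common, which is 10 of the 11 in siLAPTM4B cells and 10 of the 13 in siControl cells, all in the same direction. *ATF4*, *MTHFD1L*, *MTHFD2*, *SLC1A4*, *SLC38A2*, *SLC6A9*, *STC2* and *TRIB3* were higher without serum in both, and *CTH* and *WARS1* were lower in both. Over the 36 genes 31 differences had the same sign, and the differences correlated with r = 0.928 across genes, which are not independent replicates. The overlap, signs and correlation over all features are not given here. Whether this likeness of the 2 serum comparisons is particular to the listed genes was therefore not tested.

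**Figure D1:**
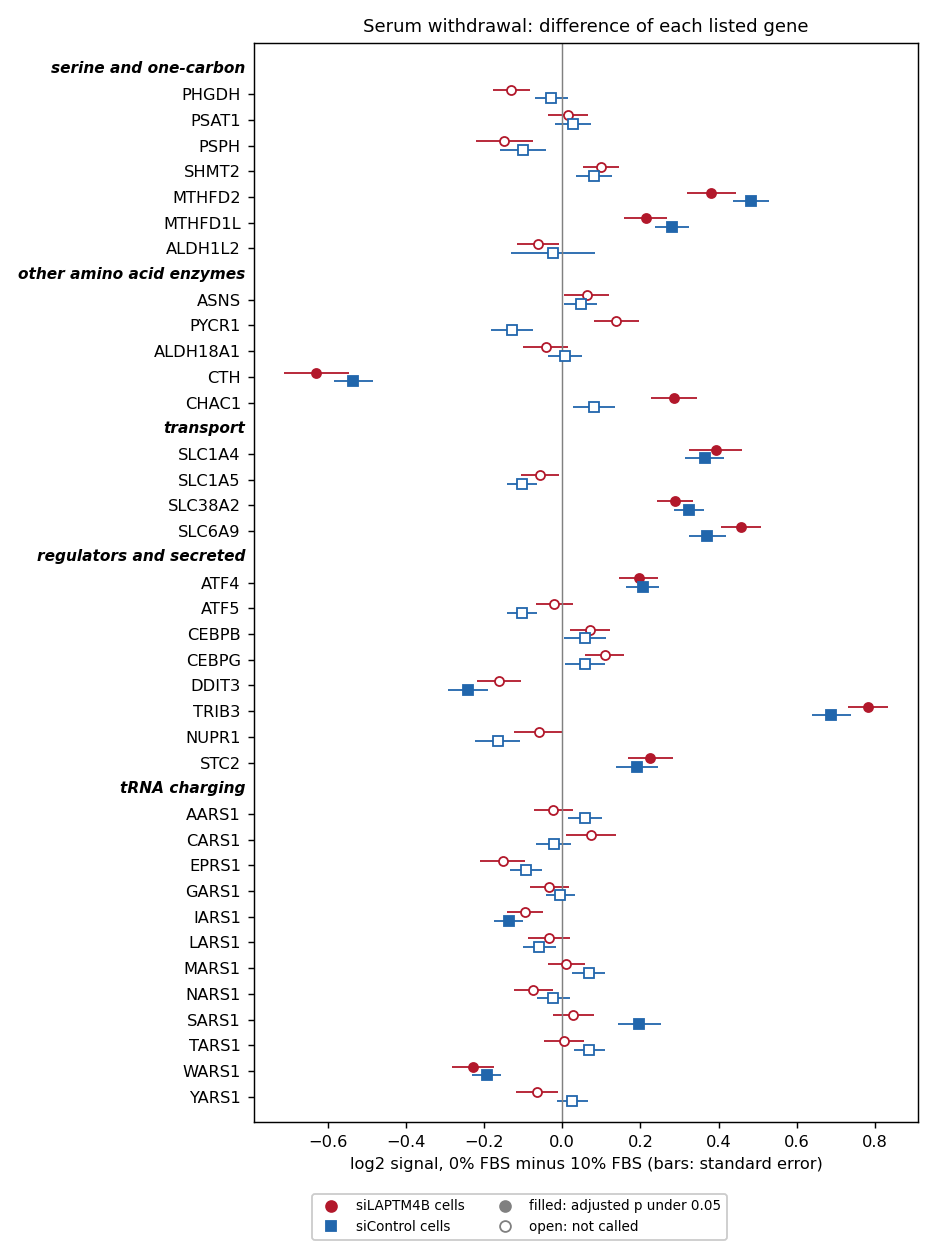
Difference in log2 signal, 0% FBS minus 10% FBS, for each of the 36 listed genes by role, in siLAPTM4B cells (red circles) and siControl cells (blue squares), with standard errors and filled symbols for an adjusted p under 0.05. *TRIB3* lies farthest to the right (0.78 and 0.69) and *CTH* farthest to the left (-0.63 and -0.54), and the tRNA charging genes cluster around 0.

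In serine and one-carbon metabolism 2 of 7 genes (28.6%) were called, *MTHFD2* and *MTHFD1L*, higher without serum in both siRNA groups. Of all features 20.7% were called in siLAPTM4B cells and 26% in siControl cells, so the share called was near that of all features. *MTHFD2* and *MTHFD1L* are the mitochondrial enzymes that oxidise one-carbon units on folate and release them as formate. *MTHFD2* read 11.06, 11.05 and 11.09 without serum and 10.60, 10.81 and 10.64 with 10% FBS in siLAPTM4B cells. In siControl cells it read 11.27, 11.17 and 11.20 without serum and 10.70, 10.71 and 10.79 with 10% FBS. In both siRNA groups every array without serum lay above every array with it, and the differences were 0.38 (SE 0.06, adjusted p = 0.00199) in siLAPTM4B cells and 0.48 (SE 0.05, adjusted p = 0.00015) in siControl cells, or 1.30-fold and 1.40-fold. A second, dimmer row with the symbol *MTHFD2* rose by 0.38 (adjusted p = 0.00145) and 0.45 (adjusted p = 0.000133). Which transcripts that row reads was not tested.

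*MTHFD1L* read 10.28, 10.23 and 10.24 without serum and 10.03, 10.13 and 9.96 with 10% FBS in siLAPTM4B cells. In siControl cells the values were 10.26, 10.23 and 10.18 without serum and 9.96, 9.90 and 9.97 with 10% FBS. The groups did not overlap, and the enzyme was higher without serum by 0.21 (SE 0.06, adjusted p = 0.0237) in siLAPTM4B cells and by 0.28 (SE 0.04, adjusted p = 0.00204) in siControl cells. Its call in siLAPTM4B cells was lost in 5 of 6 fits that left out an array, with an adjusted p of 0.0568 to 0.0893 where any array but siLAPTM4B 10% FBS replicate 2 was out.

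The 3 enzymes that make serine from a glycolytic intermediate were not called in either siRNA group. *PSAT1*, the transaminase of that route, read 11.53, 11.52 and 11.57 without serum and 11.47, 11.57 and 11.54 with 10% FBS in siLAPTM4B cells, and 11.49, 11.55 and 11.46 against 11.45, 11.44 and 11.54 in siControl cells. The groups overlapped, and the 95% interval of the difference ran from -0.10 to 0.13 in siLAPTM4B cells and from -0.08 to 0.14 in siControl cells. *PHGDH*, which opens the route, differed by -0.13 (adjusted p = 0.0872) and -0.03 (adjusted p = 0.698), and *PSPH*, which closes it, by -0.15 and -0.10. *SHMT2*, which splits serine into glycine and a one-carbon unit in mitochondria, differed by 0.10 and 0.08, and the dim *ALDH1L2* by -0.06 and -0.02. None of these 5 reached the threshold in either comparison.

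Among the other amino acid enzymes, *CTH* (cystathionine gamma-lyase, which releases cysteine in the last step of transsulfuration) fell. It read 7.33, 7.22 and 7.48 without serum against 7.91, 8.13 and 7.88 with 10% FBS in siLAPTM4B cells. The siControl arrays gave 7.30, 7.28 and 7.33 without serum and 7.75, 7.88 and 7.89 with 10% FBS. It fell by 0.63 (SE 0.08, adjusted p = 6e-04) in siLAPTM4B cells and by 0.54 (SE 0.05, adjusted p = 0.000124) in siControl cells, to 0.647 and 0.690 of its level with serum, with no overlap of the groups.

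*CHAC1*, which breaks down glutathione, read 8.53, 8.44 and 8.41 without serum and 8.18, 8.09 and 8.25 with 10% FBS in siLAPTM4B cells, a rise of 0.29 (SE 0.06, adjusted p = 0.00725). In siControl cells it read 8.47, 8.41 and 8.43 without serum and 8.40, 8.25 and 8.41 with 10% FBS, where the groups overlapped and the difference was 0.08 (SE 0.05, adjusted p = 0.32). *ASNS*, asparagine synthetase, often used as a readout of ATF4, read 8.57, 8.54 and 8.66 without serum and 8.49, 8.60 and 8.49 with 10% FBS in siLAPTM4B cells. In siControl cells *ASNS* read 8.63, 8.53 and 8.57 without serum and 8.54, 8.52 and 8.52 with 10% FBS. Its groups overlapped in both, with differences of 0.06 (95% interval -0.07 to 0.19) and 0.05 (95% interval -0.05 to 0.15). The 2 proline enzymes were not called: *ALDH18A1*, which opens the route, differed by -0.04 and 0.01, and *PYCR1*, which closes it, by 0.14 (adjusted p = 0.135) in siLAPTM4B cells and -0.13 (adjusted p = 0.128) in siControl cells.

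The transporters held the highest share of calls, 3 of 4 (75%) in each siRNA group. Of all features 20.7% were called in siLAPTM4B cells and 26% in siControl cells. The median difference of the transporters was 0.34 in siLAPTM4B cells and 0.34 in siControl cells. *SLC38A2*, a sodium-coupled carrier of small neutral amino acids, read 13.16, 13.18 and 13.18 without serum and 12.86, 12.89 and 12.91 with 10% FBS in siLAPTM4B cells. With the scrambled siRNA it read 13.18, 13.14 and 13.15 without serum and 12.81, 12.84 and 12.85 with 10% FBS. The differences were 0.29 (SE 0.05, adjusted p = 0.00192) and 0.32 (SE 0.04, adjusted p = 0.000468), in the brightest of the listed genes.

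*SLC6A9*, a glycine transporter, read 8.31, 8.37 and 8.42 without serum and 7.91, 7.88 and 7.94 with 10% FBS in siLAPTM4B cells, a difference of 0.46 (SE 0.05, adjusted p = 0.000193). In siControl cells it read 8.26, 8.29 and 8.36 against 7.98, 7.93 and 7.88, a difference of 0.37 (SE 0.05, adjusted p = 0.000689). *SLC1A4*, a carrier of alanine, serine and cysteine, read 9.13, 9.22 and 9.29 without serum and 8.85, 8.91 and 8.71 with 10% FBS in siLAPTM4B cells. Its siControl values were 9.51, 9.36 and 9.43 without serum and 9.03, 9.09 and 9.08 with 10% FBS. The carrier rose by 0.39 (SE 0.07, adjusted p = 0.00288) and 0.37 (SE 0.05, adjusted p = 0.00104), and its groups, like those of *SLC6A9* and *SLC38A2*, did not overlap. *SLC1A5*, the glutamine carrier of the same family, was not called on its brighter row, with -0.06 (adjusted p = 0.488) in siLAPTM4B cells and -0.10 (adjusted p = 0.0864) in siControl cells.

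**Figure D2:**
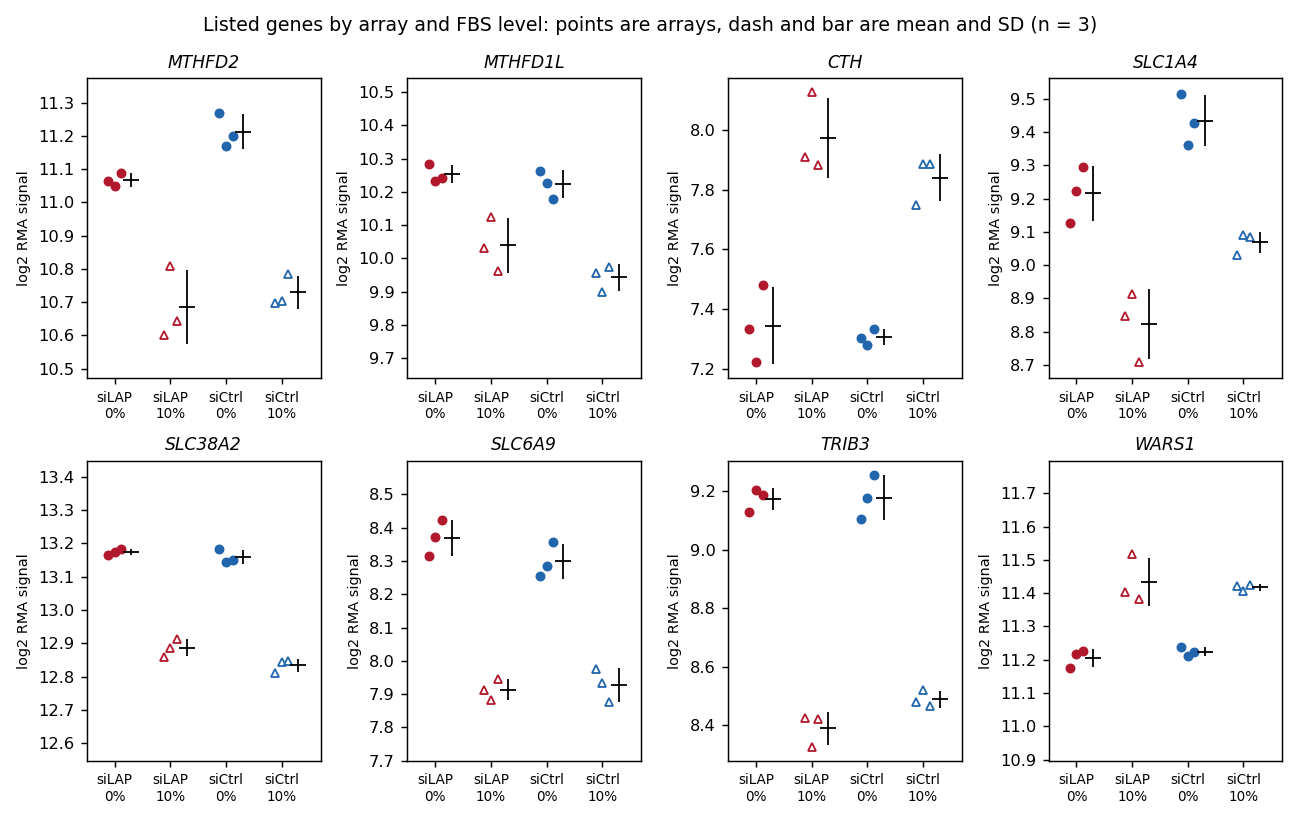
Log2 RMA signal in each array for 8 genes called on serum withdrawal, with siLAPTM4B in red and siControl in blue, circles for 0% FBS and triangles for 10% FBS, and the mean and SD of 3 arrays as dash and bar (vertical axes do not start at 0). In all 8 panels the circles of a colour stand clear of its triangles, above them for 6 genes and below them for *CTH* and *WARS1*.

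Of the regulators, *TRIB3*, *ATF4* and *STC2* rose in both siRNA groups. *TRIB3*, a pseudokinase induced by ATF4 that in turn holds ATF4 back, read 9.13, 9.20 and 9.19 without serum and 8.43, 8.33 and 8.42 with 10% FBS in siLAPTM4B cells. The siControl readings were 9.10, 9.18 and 9.26 without serum and 8.48, 8.52 and 8.47 with 10% FBS. It rose by 0.78 (SE 0.05, adjusted p = 6.97e-06) in siLAPTM4B cells and by 0.69 (SE 0.05, adjusted p = 2.89e-05) in siControl cells, or 1.72-fold and 1.61-fold, above all other listed genes.

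*ATF4* itself read 11.45, 11.48 and 11.50 without serum and 11.26, 11.33 and 11.26 with 10% FBS in siLAPTM4B cells. In siControl cells it read 11.53, 11.47 and 11.52 without serum and 11.25, 11.33 and 11.32 with 10% FBS. It rose by 0.20 (SE 0.05, adjusted p = 0.0197) and 0.21 (SE 0.04, adjusted p = 0.00865), with no overlap. In siLAPTM4B cells that call was lost in 4 of 6 fits that left out an array, with an adjusted p of 0.0564 to 0.0767 (without replicate 2 or 3 of the 0% FBS arrays, or replicate 1 or 3 of the 10% FBS arrays). The second, dimmer row for *ATF4* was not called, and which transcripts it reads was not tested. It read 11.03, 11.00 and 11.04 without serum and 11.11, 11.08 and 11.00 with 10% FBS in siLAPTM4B cells, a difference of -0.04 (adjusted p = 0.684). In siControl cells the same row read 11.19, 11.15 and 10.99 against 10.93, 11.13 and 11.08, a difference of 0.06 (adjusted p = 0.577). When the 2 rows were averaged *ATF4* was called in neither siRNA group, with 0.08 (adjusted p = 0.315) in siLAPTM4B cells and 0.13 (adjusted p = 0.0937) in siControl cells.

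*STC2*, a secreted glycoprotein, read 10.35, 10.48 and 10.51 without serum and 10.20, 10.26 and 10.19 with 10% FBS in siLAPTM4B cells, a rise of 0.23 (SE 0.06, adjusted p = 0.0206). With the scrambled siRNA it read 10.52, 10.63 and 10.58 against 10.30, 10.43 and 10.43, a rise of 0.19 (SE 0.05, adjusted p = 0.0319). Each call was lost in 4 of 6 fits without 1 array: without replicate 2 or 3 of the 0% FBS arrays or replicate 1 or 3 of the 10% FBS arrays in siLAPTM4B cells (adjusted p 0.0609 to 0.0858), and without replicate 2 or 3 of the 0% FBS arrays or replicate 1 or 2 of the 10% FBS arrays in siControl cells (adjusted p 0.0551 to 0.111).

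*DDIT3*, which encodes the pro-apoptotic factor CHOP and is a classical ATF4 target, was called in siControl cells, where it was lower without serum. It read 8.89, 9.01 and 9.04 without serum and 9.15, 9.19 and 9.10 with 10% FBS in siLAPTM4B cells, a difference of -0.16 (SE 0.06, adjusted p = 0.0741). In siControl cells it read 9.23, 9.10 and 9.18 against 9.45, 9.35 and 9.43, and fell by 0.24 (SE 0.05, adjusted p = 0.00927). The groups did not overlap in either, though the fall passed the threshold in siControl cells alone. The other regulators were not called: *ATF5*, a relative of ATF4, differed by -0.02 and -0.10, *CEBPB* and *CEBPG*, both binding partners of ATF4, by 0.07 and 0.06 and by 0.11 and 0.06, and *NUPR1*, a small stress-induced chromatin protein, by -0.06 and -0.17 (siLAPTM4B first in each pair).

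Of the 12 synthetases 9 were called in neither siRNA group, with differences between -0.15 and 0.07. Calls numbered 1 of 12 (8.33%) in siLAPTM4B cells and 3 of 12 (25%) in siControl cells, where 20.7% and 26% of all features were called. *WARS1*, which charges the tryptophan tRNA and is also induced by interferon, was the one called in both. It read 11.18, 11.22 and 11.23 without serum and 11.40, 11.52 and 11.38 with 10% FBS in siLAPTM4B cells, and 11.24, 11.21 and 11.22 against 11.42, 11.41 and 11.42 in siControl cells. It fell by 0.23 (SE 0.05, adjusted p = 0.0143) and 0.19 (SE 0.04, adjusted p = 0.00608), without overlap.

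In siControl cells 2 further synthetases were called, in opposite directions. *IARS1*, for isoleucine, read 12.36, 12.37 and 12.34 without serum and 12.51, 12.48 and 12.49 with 10% FBS there, and fell by 0.14 (SE 0.04, adjusted p = 0.0287). *SARS1*, for serine, read 11.48, 11.36 and 11.32 without serum and 11.18, 11.14 and 11.25 with 10% FBS, and rose by 0.20 (SE 0.06, adjusted p = 0.0323). In siLAPTM4B cells *IARS1* read 12.36, 12.36 and 12.41 against 12.45, 12.49 and 12.48 (-0.10, adjusted p = 0.206), and *SARS1* read 11.28, 11.23 and 11.27 against 11.19, 11.31 and 11.19 (0.03, adjusted p = 0.794). The siControl call of *IARS1* was lost whichever of the 6 arrays was left out (adjusted p 0.0543 to 0.0918), and that of *SARS1* in 4 of 6 fits (adjusted p 0.0662 to 0.115), those without replicate 1 or 2 of either medium.

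The 7 other cytosolic synthetases measured were *FARSA*, *FARSB*, *HARS1*, *KARS1*, *QARS1*, *RARS1* and *VARS1*. *FARSB*, a subunit of the phenylalanine enzyme, fell by 0.33 (SE 0.05, adjusted p = 0.00182) in siLAPTM4B cells and by 0.29 (SE 0.04, adjusted p = 0.00171) in siControl cells. *HARS1*, for histidine, rose by 0.23 (adjusted p = 0.00526) and *FARSA*, the partner subunit of FARSB, fell by 0.15 (adjusted p = 0.0258) in siControl cells, the second call being lost whichever array was left out (adjusted p 0.0514 to 0.0763). Among the 16 mitochondrial synthetases, 4 were called in siLAPTM4B cells (25%, where 20.7% of all features were called and 11% were lower) and 7 in siControl cells (43.8%, where 26% were called and 12.9% were lower), all of them lower, with a median of -0.12 and -0.10 over the 16, against -0.03 and -0.01 over the 12 listed synthetases. *EARS2*, for glutamate, fell by 0.27 (adjusted p = 0.0108) and 0.26 (adjusted p = 0.00175).

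**Figure D3:**
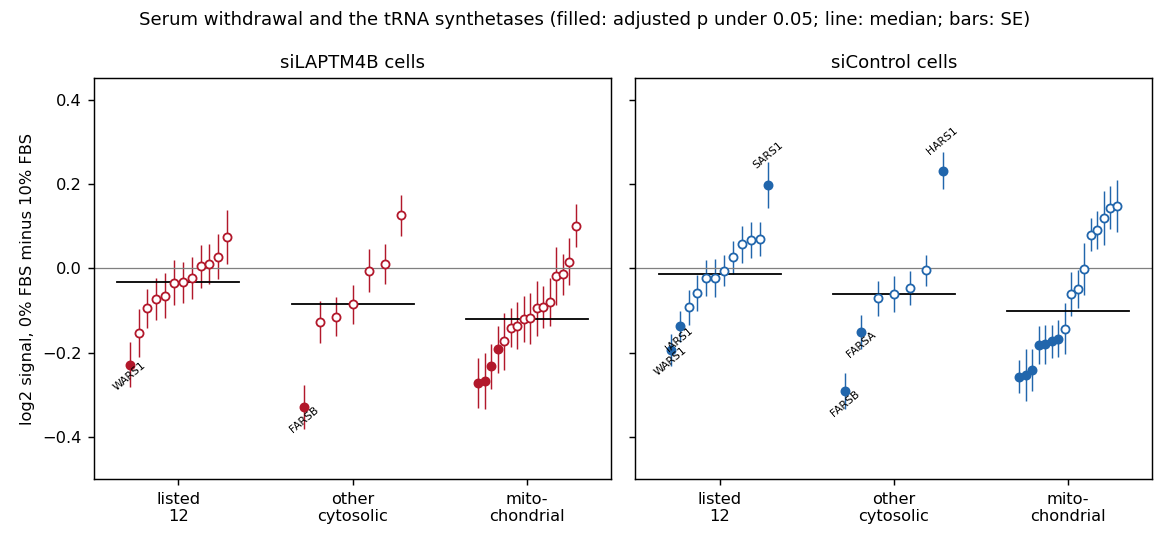
Difference in log2 signal, 0% FBS minus 10% FBS, for the 12 listed synthetases, 7 other cytosolic and 16 mitochondrial ones, in siLAPTM4B cells (red, left) and siControl cells (blue, right), with standard errors, black lines at the medians and filled points for an adjusted p under 0.05. Called genes of the first and second columns are named, and all filled points in the mitochondrial columns lie below 0.

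Set beside the promoter sites, genes called on serum withdrawal stood both among those with the core and among those without it. Of the 13 measured genes with a match, 3 rose (*MTHFD1L*, *CHAC1* and *SLC1A4*) and none fell in siLAPTM4B cells, and 2 rose (*MTHFD1L* and *SLC1A4*) and 1 fell (*IARS1*) in siControl cells. Of the 16 measured genes with a window and no match, 6 rose and 2 fell in siLAPTM4B cells, and 7 rose and 3 fell in siControl cells, *TRIB3*, *MTHFD2* and *SLC38A2* among those that rose and *CTH* and *WARS1* among those that fell. The median difference was 0.01 and 0.06 for genes with a match, against 0.02 and 0.04 for those without. These are counts in the 2 sets, and no test was made between them.

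Further genes of the pathway, from lists of general knowledge chosen with earlier results of these data known, were counted in the same fits. Of 17 other ATF4 targets, 9 rose and 2 fell in siLAPTM4B cells and 9 rose and 5 fell in siControl cells, with medians of 0.20 and 0.18. That was 64.7% and 82.4% of them called, where 20.7% and 26% of all features were called. The largest rises were those of *VLDLR*, a lipoprotein receptor, with 2.10 (adjusted p = 1.99e-08) and 2.34 (adjusted p = 1.67e-07), *VEGFA*, a growth factor for vessels, with 1.47 and 1.22, and *GDF15*, a secreted stress cytokine, with 0.82 and 1.17. *SLC7A5*, the light chain of the leucine transporter, fell by 0.49 (adjusted p = 9.19e-05) and 0.65 (adjusted p = 1.11e-05), opposite to the listed transporters *SLC38A2*, *SLC6A9* and *SLC1A4*. Several of these genes answer to other factors as well.

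Of 12 genes for the kinases, phosphatase subunits and initiation factors upstream of ATF4, *PPP1R15A*, which brings phosphatase to eIF2 and closes the response, rose by 0.46 (adjusted p = 0.000192) in siLAPTM4B cells and by 0.60 (adjusted p = 5.6e-05) in siControl cells. It was the one gene of the 12 called higher in siLAPTM4B cells, where *EIF2B2* and *EIF2B3*, subunits of the exchange factor for eIF2, fell by 0.21 (adjusted p = 0.0166) and 0.24 (adjusted p = 0.04), each call being lost in 4 of 6 fits without 1 array (adjusted p 0.0531 to 0.0721 for *EIF2B2*, without replicate 2 or 3 of either medium, and 0.0704 to 0.123 for *EIF2B3*, without replicate 1 or 2 of the 0% FBS arrays or replicate 2 or 3 of the 10% FBS arrays). In siControl cells 4 rose and none fell, among them *PPP1R15B* (0.22, adjusted p = 0.00437) and the kinase gene *EIF2AK3*, which encodes PERK (0.24, adjusted p = 0.00521). The calls were 25% of the 12 in siLAPTM4B cells and 33.3% in siControl cells, where 20.7% and 26% of all features were called. Of 13 one-carbon and amino acid enzymes outside the list, 1 was called higher and 4 lower in siLAPTM4B cells (38.5%), and 1 higher and 2 lower in siControl cells (23.1%). In each siRNA group 11 of the 13 differences were negative, with medians of -0.11 and -0.05. Among the 13, *GLUL*, glutamine synthetase, rose by 0.74 (adjusted p = 6.82e-06) and 0.85 (adjusted p = 2.86e-05), and *PYCR3*, a proline enzyme, fell by 0.26 (adjusted p = 0.0104) and 0.31 (adjusted p = 0.00193), in siLAPTM4B and siControl cells in that order.

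After knockdown of *LAPTM4B* few of the listed genes passed the threshold. Without serum 0 of 36 were called, where 2.33% of all features were called (0.591% higher and 1.74% lower), and 11 (30.6%) had an unadjusted p under 0.05 in limma, where 15.1% of all features did. A Student's test per feature, with no prior, called 0 after Benjamini-Hochberg adjustment. With 10% FBS 2 of 36 were called (5.56%), both lower, where 4.08% of all features were called (1.99% higher and 2.09% lower), and 8 (22.2%) had an unadjusted p under 0.05, where 18.2% of all features did. Those called were *DDIT3* and *CEBPB*. The median difference, siLAPTM4B minus siControl, was -0.02 without serum and -0.01 with 10% FBS over the 36 genes, against 0.01 and 0.00 over all features, and the median size of a difference was 0.04 and 0.06, against 0.05 and 0.06 over all features. These comparisons use the same arrays as the serum comparisons, and each medium has its own 6.

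*DDIT3* read 8.89, 9.01 and 9.04 in siLAPTM4B against 9.23, 9.10 and 9.18 in siControl without serum, a difference of -0.19 (SE 0.06, adjusted p = 0.158). With 10% FBS it read 9.15, 9.19 and 9.10 in siLAPTM4B against 9.45, 9.35 and 9.43 in siControl, and fell by 0.26 (SE 0.05, adjusted p = 0.0243), to 0.833 of the siControl level. In both media every siLAPTM4B array lay below every siControl array. The call with 10% FBS was lost in 5 of 6 fits without 1 array (adjusted p 0.0622 to 0.0949), all but that without siLAPTM4B replicate 2.

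*CEBPB*, a C/EBP factor that dimerises with ATF4, read 10.20, 10.26 and 10.23 in siLAPTM4B against 10.44, 10.36 and 10.53 in siControl without serum, a difference of -0.22 (SE 0.05, adjusted p = 0.0877). With 10% FBS it read 10.20, 10.09 and 10.18 in siLAPTM4B against 10.41, 10.41 and 10.33 in siControl, and fell by 0.23 (SE 0.05, adjusted p = 0.0425). These groups did not overlap either. In the same comparison *EPCAM*, of 5 epithelial markers, was called higher in siLAPTM4B cells (0.51, adjusted p = 0.0366), a call lost in 4 of 6 fits without 1 array (adjusted p 0.0793 to 0.135, all but those without siLAPTM4B replicate 1 or siControl replicate 3), and its part in these results was not tested. The call of *CEBPB* was lost whichever of the 6 arrays was left out (adjusted p 0.0667 to 0.182).

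**Figure D4:**
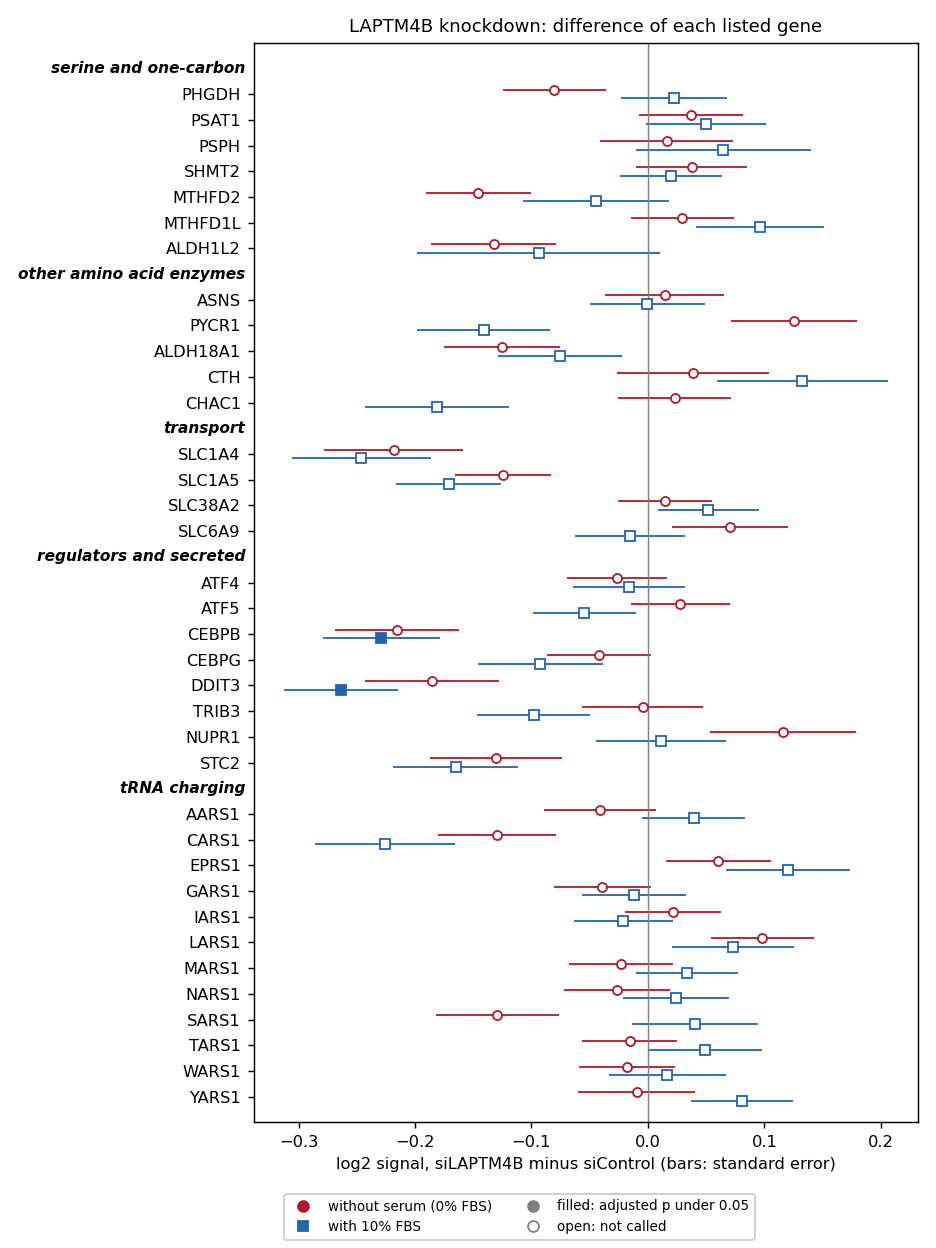
Difference in log2 signal, siLAPTM4B minus siControl, for each of the 36 listed genes by role, without serum (red circles) and with 10% FBS (blue squares), with standard errors and filled symbols for an adjusted p under 0.05. The differences lie between -0.26 and 0.13, and *CEBPB* and *DDIT3* with 10% FBS are the filled points.

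*ATF4* and its standard enzyme targets were not called. *ATF4* differed by -0.03 (95% interval -0.13 to 0.07) without serum and by -0.02 (95% interval -0.13 to 0.09) with 10% FBS. For *ASNS* the differences were 0.01 (95% interval -0.10 to 0.13) and 0.00 (95% interval -0.11 to 0.11), and for *PSAT1* 0.04 (95% interval -0.07 to 0.14) and 0.05 (95% interval -0.07 to 0.17).

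Of the transporters, *SLC1A4* differed by -0.22 (SE 0.06, adjusted p = 0.117) without serum and by -0.25 (SE 0.06, adjusted p = 0.0614) with 10% FBS, neither past the threshold, and its siLAPTM4B and siControl arrays did not overlap in either medium. *SLC38A2* and *SLC6A9*, which rose on serum withdrawal, differed by 0.01 and 0.05 and by 0.07 and -0.02, without serum first. *STC2* differed by -0.13 (adjusted p = 0.327) and -0.17 (adjusted p = 0.141) and *TRIB3* differed by 0.00 and -0.10. The enzymes of serine and one-carbon metabolism spanned -0.15 (*MTHFD2*, adjusted p = 0.158) to 0.04 without serum and -0.09 to 0.10 with 10% FBS. The 12 synthetases spanned -0.13 to 0.10 and -0.23 to 0.12, with medians of -0.02 and 0.04. *CARS1*, for cysteine, was at the low end in both media, with -0.13 (SE 0.05, adjusted p = 0.275) without serum and -0.23 (SE 0.06, adjusted p = 0.0812) with 10% FBS.

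*SLC1A5* has 2 rows that disagree. The brighter row read 11.34, 11.39 and 11.36 in siLAPTM4B against 11.50, 11.47 and 11.48 in siControl without serum, and 11.40, 11.46 and 11.39 against 11.62, 11.57 and 11.58 with 10% FBS. The differences of -0.12 (adjusted p = 0.193) and -0.17 (adjusted p = 0.0802) did not pass the threshold, though the groups did not overlap. The dimmer row carries the same gene symbol, and which transcripts it reads was not tested. It read 8.70, 8.82 and 8.66 in siLAPTM4B against 8.61, 8.65 and 8.71 in siControl without serum, a difference of 0.07 (adjusted p = 0.617). With 10% FBS that row read 8.52, 8.18 and 8.41 in siLAPTM4B against 9.05, 8.94 and 8.88 in siControl, and fell by 0.59 (SE 0.09, adjusted p = 0.00987). On serum withdrawal it rose by 0.36 (adjusted p = 0.0161) in siLAPTM4B cells and fell by 0.30 (adjusted p = 0.005) in siControl cells, and leaving out replicate 2 of the siLAPTM4B 0% FBS arrays ended the first call (adjusted p = 0.0642).

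**Figure D5:**
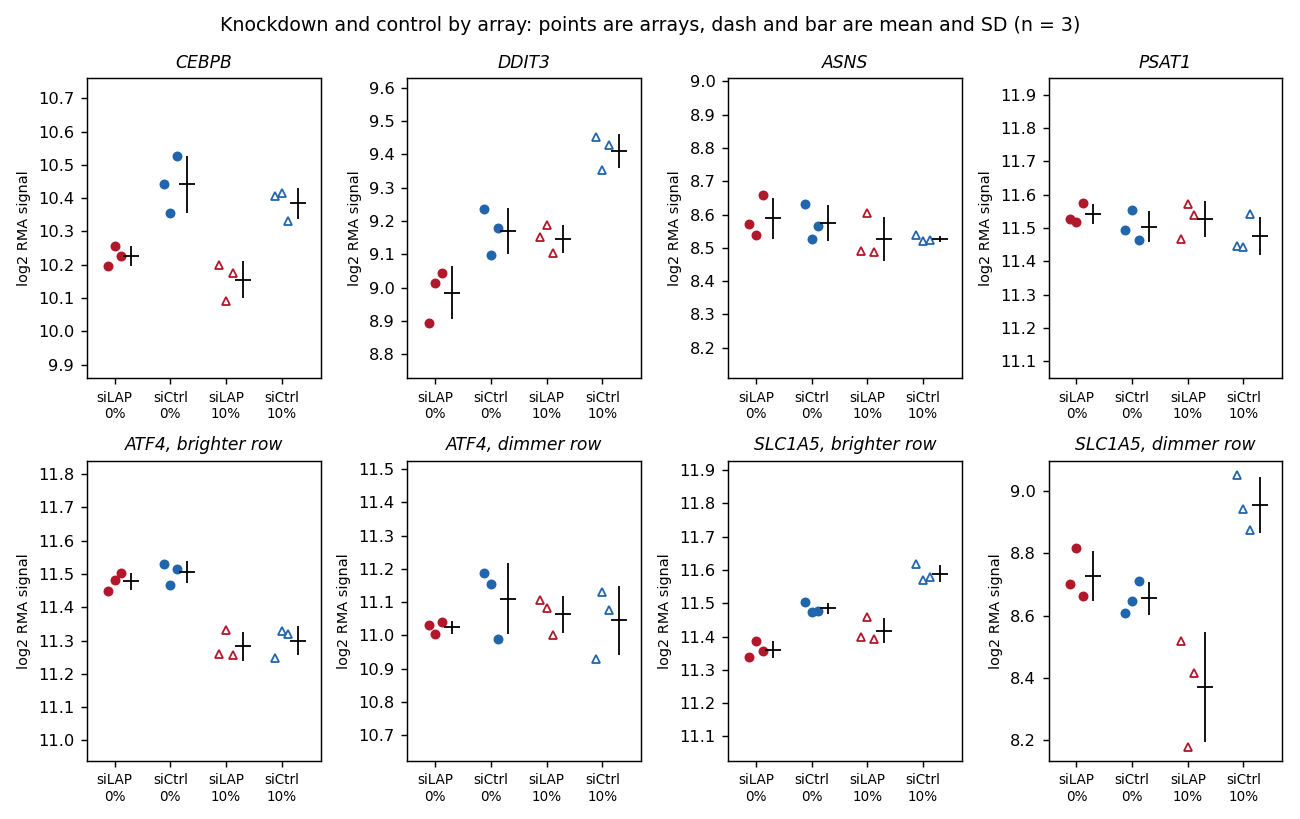
Log2 RMA signal in each array, siLAPTM4B in red and siControl in blue, circles for 0% FBS and triangles for 10% FBS, with the mean and SD of 3 arrays as dash and bar (vertical axes do not start at 0). *CEBPB* and *DDIT3* lie lower in siLAPTM4B in both media, *ASNS* and *PSAT1* overlap, and both rows of *ATF4* and *SLC1A5* are shown, with siLAPTM4B at 8.18 to 8.52 against siControl at 8.88 to 9.05 in 10% FBS on the dimmer *SLC1A5* row.

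The 17 other ATF4 targets held 2 calls without serum, *SLC7A11* and *GDF15*, and 4 with 10% FBS, *SLC7A11*, *SLC7A5*, *VEGFA* and *DDIT4* (the last named after its value was seen), all lower in siLAPTM4B cells, with medians of -0.07 and -0.12. The calls were 11.8% and 23.5% of the 17, where 2.33% and 4.08% of all features were called. *SLC7A11*, the cystine carrier, fell by 0.62 (adjusted p = 0.00127) without serum and by 0.86 (adjusted p = 0.000463) with 10% FBS, and was called in every fit without 1 array. The paper treats *SLC7A11* as a target of the transcription factor NRF2, and reports by qRT-PCR that siRNA against *LAPTM4B* or *NRF2* lowered it in Calu-6 cells. Which factor the fall on these arrays answers to was not tested. A Student's test per feature lost its call without serum (adjusted p = 0.0557) and kept that with 10% FBS. *DDIT4*, an inhibitor of mTORC1 signalling, fell by 0.36 (adjusted p = 0.0214) with 10% FBS, and the call was lost in 4 of 6 fits without 1 array (adjusted p 0.057 to 0.0823, without replicate 1 or 3 of either siRNA). *GDF15* fell by 0.56 (SE 0.08, adjusted p = 0.012) without serum, and the call was lost without siLAPTM4B 0% FBS replicate 2 or siControl 0% FBS replicate 3 (adjusted p 0.0508 to 0.0638). *SLC7A5* fell by 0.25 (SE 0.04, adjusted p = 0.0192) and *VEGFA* by 0.34 (SE 0.06, adjusted p = 0.0203) with 10% FBS. The call of *SLC7A5* was lost in 5 of 6 fits without 1 array (adjusted p 0.0512 to 0.106, all but that without siLAPTM4B replicate 1) and that of *VEGFA* in 4 of 6 (adjusted p 0.0517 to 0.0891, without replicate 1 or 3 of siControl or 2 or 3 of siLAPTM4B). Tested over all 33252 rows, *GDF15*, *SLC7A5* and *VEGFA* were not called. With the Student's test *GDF15* and *VEGFA* were not called either. None of the 12 genes upstream of ATF4 and none of the 7 other cytosolic synthetases was called in limma after knockdown in either medium, though 2 and 0 of them without serum and 2 and 3 of them with 10% FBS had an unadjusted p under 0.05, where 15.1% and 18.2% of all features did. Of the 16 mitochondrial synthetases 1 was called (6.25%), without serum, where 2.33% of all features were called. *NARS2*, for asparagine, fell by 0.25 (adjusted p = 0.0487), and the call was lost whichever of the 6 arrays was left out (adjusted p 0.0696 to 0.175).

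The dependence of the knockdown effect on serum was tested by an interaction term fitted to the 12 arrays together. Of the 36 genes 0 were called, where 0.262% of all features were called (0.0719% higher and 0.19% lower), and 3 (8.33%) had an unadjusted p under 0.05 in limma, where 11% of all features did. *LAPTM4B* itself had a term of 0.33 (adjusted p = 0.0345), its difference being -1.42 without serum and -1.75 with 10% FBS, so the depletion of the target differed between the media by this test. That call was lost in each of the 12 fits without 1 array (adjusted p 0.0522 to 0.103). The largest terms were those of *PYCR1* (0.27, SE 0.08, adjusted p = 0.228), *CHAC1* (0.20, SE 0.08, adjusted p = 0.367) and *SARS1* (-0.17, SE 0.07, adjusted p = 0.429). *CHAC1* was called on serum withdrawal in siLAPTM4B cells and *SARS1*, *IARS1* and *DDIT3* in siControl cells alone, and none of the 4 was shown to differ between the siRNA groups, with terms of 0.04 (adjusted p = 0.806) for *IARS1* and 0.08 (adjusted p = 0.746) for *DDIT3*. For *TRIB3* and *MTHFD2* the terms were 0.09 (adjusted p = 0.658) and -0.10 (adjusted p = 0.673).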

How the data were processed

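The authors normalised the 12 arrays by RMA in BRB-ArrayTools, and the deposited values are log2 signals, one per array row, after background correction, quantile normalisation between arrays and a summary over probes. Array library, probe set level and annotation release are not given in the sources used here. Quantile normalisation makes all arrays share one distribution, so differences are relative to the other features. Of 33252 rows, 19460 carried 1 gene symbol and were used, 1754 carried several and 12038 none, and 0 value columns were left without a sample.

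Groups came from the labels. Each comparison was fitted to its 6 arrays with limma 3.58.1 in R 4.3.3 (one prior variance, Benjamini-Hochberg over the 19460 features), and the interaction to all 12. No covariate was used. Values by array were given for called members, at most 8 per comparison by smallest adjusted p, and always for *ATF4*, *DDIT3*, *ASNS* and *PSAT1*. Those of *STC2*, *IARS1*, *SARS1*, *SLC1A5* and second rows were added after they were seen. Of other genes, up to 3 called ones per list and direction were named. Gene symbols came from GEO's platform annotation. Members and lists were chosen with earlier results of these data known. Deviations from group means correlated between siControl arrays of the same number in the 2 media (0.366, 0.13 and 0.20), a hint of pairing from the data only. They did so too between siLAPTM4B and siControl arrays without serum (0.387, 0.0694 and 0.184). An exact permutation test of 3 arrays against 3 cannot go below a two-sided p of 0.1 and was not used. Scripts were tested on simulated data. The number of arrays limits the precision. Alternatives covered the features tested, the prior variance, a Student's test per feature with equal variances and no prior (the methods give a threshold for the arrays but name no test), the fit, the scaling, the replicate block, each array left out, the threshold and the rows of a gene, of which that test at an unadjusted p under 0.01, the other row of a gene, and each array left out for *EPCAM*, *DDIT4* and *LAPTM4B* were chosen after seeing the data.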

Additional observations from a re-analysis of the deposited data

Results flagged for a closer look

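The dimmer row of *SLC1A5* stands out because its response to serum ran in opposite directions in the 2 siRNA groups, and the difference itself was tested. Its interaction of siRNA and serum was 0.66 (SE 0.11, adjusted p = 0.0342 in limma), made up of a rise of 0.36 without serum in siLAPTM4B cells and a fall of 0.30 in siControl cells. The call was lost in 10 of 21 alternatives, 8 of them fits without 1 array (adjusted p 0.0685 to 0.103). Those left out any siControl 0% FBS array, siLAPTM4B 0% FBS replicate 1 or 2, siControl 10% FBS replicate 1 or 2, or siLAPTM4B 10% FBS replicate 3. The brighter row had a term of 0.05 (adjusted p = 0.797). Which transcripts the dimmer row reads was not tested.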

How the results depend on the processing

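No called listed gene changed sign under any alternative, and the counts on serum withdrawal stayed within 1.5 times (8 to 11 in siLAPTM4B cells and 10 to 12 in siControl cells without 1 array). Knockdown with 10% FBS gave 2 calls, but 0 over all features or with a Student's test per feature, 1 with each array centred on its median or with the replicate block (*CEBPB* lost), 4 without dim features, 5 in one fit of all 12 arrays or at an unadjusted p under 0.01, 6 with an intensity trend and robust prior, and 0 to 2 without 1 array. Knockdown without serum gave 0 calls, but 4 with the trend and robust prior, 2 at an unadjusted p under 0.01, 1 in one fit of all 12 arrays and 1 with the Student's test at an unadjusted p under 0.01 (added after seeing the data). The interaction gave 1 (*PYCR1*) at an unadjusted p under 0.01. The replicate block changed no other call of the listed genes: 0 without serum, 11 and 13 on serum withdrawal and 0 for the interaction. Arrays of the same number had correlated deviations of 0.387, 0.0694 and 0.184 for knockdown without serum. The values were 0.368, 0.153 and -0.0795 for knockdown with 10% FBS. On serum withdrawal in siLAPTM4B cells they were 0.316, 0.131 and -0.167. Uncalled values near 0 changed sign. The interaction of *ATF4* was 0.005 after quantile normalisation was repeated, and ran from -0.029 to 0.015 without 1 array. So did those of *ASNS* (-0.02 to 0.053) and *PSAT1* (-0.046 to 0.012), *ASNS* after knockdown without serum (-0.02 to 0.043) and *PSAT1* on serum withdrawal in siLAPTM4B cells (-0.015 to 0.038). The causes were not tested. With 3 arrays a group the median 95% interval reached 0.095 to 0.13 to either side, depending on the role and comparison.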
